A study of Mus musculus with 44 samples.

Results

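The liver X receptors (LXRs) and a set of their best known target genes were followed in mouse ovarian follicles exposed to perfluorononanoic acid (PFNA), a per- and polyfluoroalkyl substance. Members were taken by gene symbol alone, with no threshold on measured values: Nr1h2, Nr1h3, Abca1, Abcg1, Mylip, Apoe, Lpcat3 and Pltp. All 8 symbols were found, each in a single row, among 22674 genes of the maturation table and among 18274 genes of the ovulation table. Every library came from wild-type CD-1 mouse follicles, and the labels name no age, PFNA dose or exposure time. In the maturation window, 11 control libraries had received DMSO and 10 had received PFNA. In the ovulation window, 12 control libraries had received human chorionic gonadotropin (hCG), the hormone that triggers ovulation in such follicles, and 11 had received hCG together with PFNA. Libraries were polyadenylated RNA sequencing of whole follicles, so granulosa cells, theca cells, oocyte and any other cell contribute to each value, and fewer cells of a type and less RNA per cell cannot be told apart. The labels do not say whether the libraries of a group came from separate animals or cultures, so p-values measure the spread between these libraries.

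LXRs are nuclear receptors that bind oxysterols, the oxidised derivatives of cholesterol, and act on DNA as pairs with the retinoid X receptors. Their target genes carry cholesterol out of cells through ABCA1 and ABCG1, which load it onto apolipoprotein particles, supply the acceptor apolipoprotein E, move phospholipid between particles through PLTP, rebuild membrane phospholipids through LPCAT3, and limit lipoprotein uptake through the ubiquitin ligase MYLIP. Follicle cells need cholesterol as the substrate of steroid hormones, and the balance of its uptake, storage and export shifts around ovulation.

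Positions are those of the GRCm38 build, to which the starts given in the maturation table correspond for all 8 genes. The receptors lie on chromosome 7 (Nr1h2, LXR beta, 44549616 to 44553951) and chromosome 2 (Nr1h3, LXR alpha, 91184061 to 91202834). Abca1 spans 53030787 to 53159895 on chromosome 4, and Abcg1 spans 31057675 to 31117988 on chromosome 17. Mylip lies on chromosome 13 (45389742 to 45412022) and Apoe on chromosome 7 (19696109 to 19699188). Lpcat3 lies on chromosome 6 (124663027 to 124704418), where its annotated span overlaps Emg1 on the other strand. Pltp lies on chromosome 2 (164839518 to 164857711), where its span overlaps Ctsa on the other strand. The counting is not stated to use strand, so reads from the shared stretches cannot be assigned to 1 gene with certainty.

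Promoters are shown for 4 members because their transcripts separated into a pair that fell after hCG with PFNA (Abca1 and Lpcat3) and a pair that rose (Apoe and Pltp). Each sequence gives the 250 bases before an annotated start site, 5′ to 3′ on the gene's strand, from RefSeq on GRCm38.p6. Abcg1 had no entry in the promoter table. Capitals mark matches to 3 motifs, namely a relaxed form of the LXR element, the E-box and the TATA letters. The windows are chr4:53159896-53160145 (minus strand) for Abca1, chr6:124662854-124663103 (plus strand) for Lpcat3, chr7:19699189-19699438 (minus strand) for Apoe and chr2:164857709-164857958 (minus strand) for Pltp.
Abca1: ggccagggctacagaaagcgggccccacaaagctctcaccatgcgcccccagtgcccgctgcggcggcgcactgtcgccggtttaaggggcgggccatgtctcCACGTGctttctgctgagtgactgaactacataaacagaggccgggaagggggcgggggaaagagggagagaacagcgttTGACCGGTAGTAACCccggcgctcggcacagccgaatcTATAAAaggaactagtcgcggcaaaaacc
Lpcat3: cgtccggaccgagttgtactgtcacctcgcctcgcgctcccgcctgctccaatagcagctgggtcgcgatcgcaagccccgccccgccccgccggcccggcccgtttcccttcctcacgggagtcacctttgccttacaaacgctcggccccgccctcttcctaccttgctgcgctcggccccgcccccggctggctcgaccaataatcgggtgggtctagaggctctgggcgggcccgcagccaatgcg
Apoe: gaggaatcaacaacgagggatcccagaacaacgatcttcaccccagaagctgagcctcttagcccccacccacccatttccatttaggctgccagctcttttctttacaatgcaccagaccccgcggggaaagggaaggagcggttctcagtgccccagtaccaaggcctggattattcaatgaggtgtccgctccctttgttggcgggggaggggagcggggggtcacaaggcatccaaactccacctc
Pltp: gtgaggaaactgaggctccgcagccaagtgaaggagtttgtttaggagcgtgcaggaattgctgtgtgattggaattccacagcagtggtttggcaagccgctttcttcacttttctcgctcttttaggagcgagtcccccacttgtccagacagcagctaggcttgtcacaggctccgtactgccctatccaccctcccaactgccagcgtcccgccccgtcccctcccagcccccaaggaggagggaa

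The Abca1 promoter held all 3 marked motifs. The relaxed LXR element TGACCNNNNNNAACC, searched on both strands, began 67 bases before the start site. It was written to fit the element known from this promoter, so the match is by construction, and 0.241% of 32817 promoter windows of 300 bases held it. The E-box CACGTG began 147 bases before the start site and was present in 7.15% of all windows. The letters TATAAA, searched on the gene's strand only, began 29 bases before it and were present in 8.32% of all windows, among them windows of Apoe, Mylip and Pltp. The strict consensus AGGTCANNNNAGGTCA, searched on both strands, was in none of the 10 windows of the members and in 0.0152% of all windows. Its half-site AGGTCA was likewise in none of the 10, against 16.3% of all. Lpcat3 had the same 71% GC as Mylip, against a median of 52.7% over all promoter entries, and 36 CpG dinucleotides against a median of 7. A match describes these letters in this window and says nothing of binding.

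Several facts about the libraries bear on the values. In the ovulation window the control libraries held 11961105 to 16045751 counts and the PFNA libraries 10600931 to 19511531. The maturation table holds TPM, a transcript share per length with the same total in every library, so its depth is unknown. On the first principal component of the maturation window, PFNA replicates 1 and 2 lay at -18.1 and -10.6, within the range of the controls (-37.7 to -7.6), while the other PFNA libraries lay between 33.4 and 48.8. Granulosa marker genes summed to 42300 to 64800 TPM in maturation controls and to 15500 to 49000 TPM with PFNA. Of these genes 7 of 10 were called lower, beside 16.1% of all genes tested. Most of that sum was Inha, with means of 35000 and 21700 TPM, followed by Inhbb at 9170 and 3180 TPM. Gja1 stood at 2730 and 2810 TPM and Foxl2 at 1170 and 1010 TPM, so the sum is not a measure of cell number alone. Oocyte markers were called lower in that window as well, 11 of 11 tested, but not in every library. Their sum was 158 to 247 TPM in controls, and PFNA replicates 1 and 2 held 163 and 140 TPM. PFNA replicate 10 had the highest oocyte sum of its group (415 TPM), above every control, and the lowest granulosa sum (15500 TPM). The other PFNA libraries lay at 0.268 to 7.51 TPM of oocyte markers. Among ovulation libraries, the granulosa sum was 11000 to 14000 CPM in controls and 12300 to 15500 CPM with PFNA. CPM are normalised counts scaled to a common library total. Of the 10 markers 8 were called higher and 1 lower, beside 38.0% and 35.2% of all genes tested. Most of the sum was Inha, the lower marker, with means of 7350 and 5540 CPM, and Gja1, with means of 4500 and 6520 CPM.

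A gene was called when its Benjamini-Hochberg adjusted p over all genes tested was under 0.05. In the maturation window limma was used on log2(TPM + 1), and the 13712 genes tested averaged 1 TPM or more. It called 29.4% of them, 13.3% higher and 16.1% lower with PFNA. Among the members 6 were tested, of which Abca1, Apoe and Pltp rose, Nr1h2 fell, and Mylip and Lpcat3 were not called. Their median log2 fold change was 0.56, beside 0.02 over all genes tested. Nr1h3 and Abcg1 averaged less than 1 TPM and so were left out of the test.

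For the ovulation window, edgeR's quasi-likelihood test covered 13441 genes and called 73.2% of them, 38.0% higher and 35.2% lower. All 8 members were tested, and 6 were called, a share of 75% that lies near the background. Abca1, Lpcat3 and Nr1h2 fell, Abcg1, Apoe and Pltp rose, and Nr1h3 and Mylip were not called. Their median log2 fold change was 0.05, beside 0.04 over all genes. The count of called members therefore says little, and the sizes and directions below carry the description. Large changes were common here, with a log2 fold change of at least 1 in either direction for 27.4% of all genes tested. A higher value than that of Abcg1, Apoe and Pltp was seen for 5.08%, 15% and 13.3% of genes. A lower value than that of Lpcat3 was seen for 7.87%. On the first principal component of this window controls lay at -63.3 to -38.3 and PFNA libraries at 46.2 to 61.8. The share of all genes whose groups do not overlap was not counted, so non-overlap below describes a gene and does not set it apart from others.

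**Figure D1:**
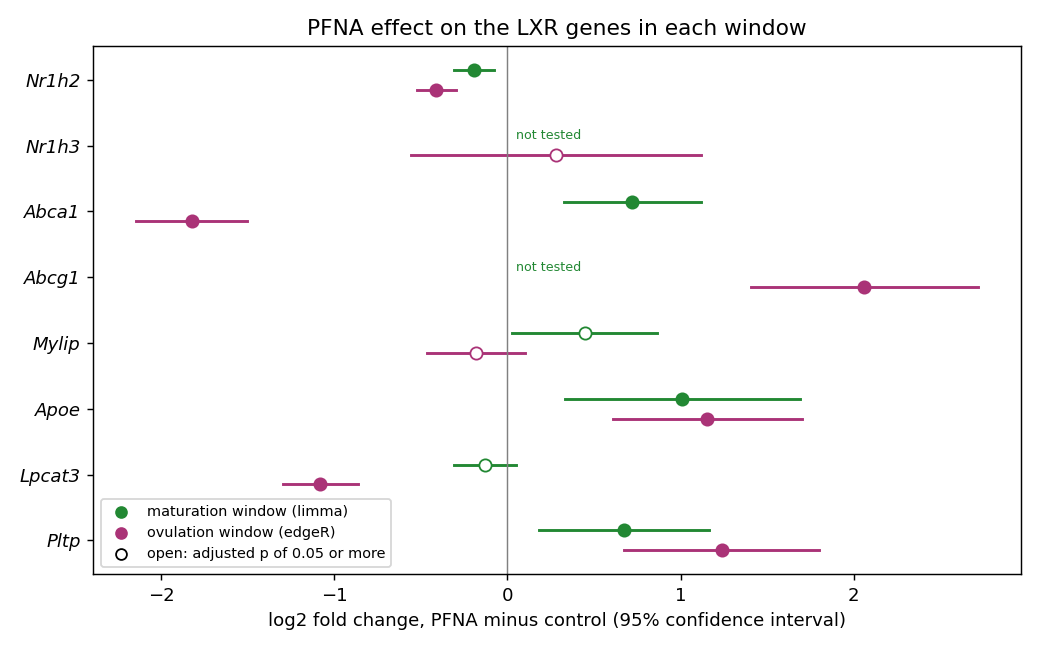
Log2 fold change of each gene with PFNA (x axis, PFNA minus control, with its 95% confidence interval) in the maturation window (green) and the ovulation window (purple); open points had an adjusted p of 0.05 or more. Abca1 lies at 0.72 in the maturation window and at -1.82 in the ovulation window, while Apoe and Pltp lie above 0 in both.

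Nr1h2, which encodes LXR beta, was by far the more abundant receptor transcript. In maturation controls it ranged from 164 to 214 TPM with a median of 195, and with PFNA from 140 to 188 TPM with a median of 168. Of the 10 PFNA libraries 5 lay below every control and the rest overlapped the lower controls. The mean fell from 192 ± 13.4 (SD, n = 11) to 168 ± 15.3 TPM (SD, n = 10). On the log2 scale this was -0.19 with an SE of 0.055 (adjusted p = 0.011 by limma). The call was lost when the values were rescaled without mitochondrial-like genes (-0.13, adjusted p = 0.070). With hCG present, controls ranged from 75.8 to 96.1 CPM with a median of 86.7, and PFNA libraries from 54.9 to 74.4 CPM with a median of 66.2. The groups did not overlap there, and all 11 PFNA libraries lay below the lowest control. The log2 fold change was -0.41, with an SE of 0.055 (adjusted p = 3.1e-07 by edgeR), and 27.4% of all genes tested had a lower one.

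Nr1h3, which encodes LXR alpha, was low in every group. It ranged from 0.0271 to 2.05 TPM in maturation controls and from 0.438 to 1.33 TPM with PFNA, with medians of 0.552 and 0.812, and every PFNA library lay within the control range. After hCG, it ranged from 0.205 to 3.38 CPM in controls and from 0.512 to 3.53 CPM with PFNA, with medians of 1.03 and 1.24. Its log2 fold change was 0.28 with a 95% interval of -0.55 to 1.12 (edgeR adjusted p = 0.54). That interval leaves room for a sizeable change in either direction.

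Abca1, the transporter that hands cholesterol and phospholipid to lipid-poor apolipoproteins, moved in opposite directions in the windows. In maturation controls it ranged from 3.95 to 14.7 TPM with a median of 10.1, and with PFNA from 8.62 to 29.7 TPM with a median of 15.8. Above every control lay 6 of the 10 PFNA libraries, and the lowest were replicates 1 and 2 at 8.62 and 13.1 TPM. The mean rose from 9.99 ± 3.13 (SD, n = 11) to 17.1 ± 5.73 TPM (SD, n = 10). On the log2 scale this was 0.72 with an SE of 0.19 (adjusted p = 0.0070 by limma). Only 3.08% of all genes tested had a higher log2 fold change. Without PFNA replicates 1 and 2 the value was 0.87 (adjusted p = 0.0011), and without replicate 10, the highest library, it was 0.63 (adjusted p = 0.013).

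After hCG the same gene fell with PFNA. Control libraries ranged from 475 to 1186 CPM with a median of 803, and PFNA libraries from 139 to 361 CPM with a median of 239. The groups were fully apart, with the highest PFNA library below the lowest control. The mean fell from 825 ± 229 (SD, n = 12) to 233 ± 57.6 CPM (SD, n = 11). On the log2 scale this was -1.82 with an SE of 0.16 (adjusted p = 1.6e-10 by edgeR), or 3.54-fold lower (95% interval 2.83 to 4.43). Of all genes tested 2.68% had a lower log2 fold change.

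Abcg1, the partner transporter that exports cholesterol to mature HDL particles, went the other way after hCG. It was scarce in controls, from 0.492 to 4.60 CPM with a median of 2.91, and ranged from 3.59 to 26.3 CPM with a median of 10.8 with PFNA. Only PFNA replicate 6 lay within the control range, and the other 10 lay above it. The log2 fold change was 2.06, with an SE of 0.32 (adjusted p = 2.9e-06 by edgeR), a 4.17-fold rise with a 95% interval of 2.65 to 6.58. During maturation, Abcg1 was at 0.195 to 1.16 TPM in controls and at 0.274 to 3.59 TPM with PFNA, with medians of 0.575 and 0.823. Above every control lay 3 PFNA libraries there, and without a filter on low values its log2 fold change was 0.32 (SE 0.18, adjusted p = 0.24).

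Apoe, the acceptor apolipoprotein, rose in both windows. In maturation controls it ranged from 75.3 to 437 TPM with a median of 297, and with PFNA from 248 to 1461 TPM with a median of 486. Of the PFNA libraries 7 lay above every control, and the lowest were again replicates 1 and 2, at 248 and 254 TPM. Its log2 fold change was 1.01, with an SE of 0.33 (adjusted p = 0.023 by limma). It was 1.28 without PFNA replicates 1 and 2 (adjusted p = 0.0036) and 0.85 without replicate 10 (adjusted p = 0.046). As for Abca1, the larger value leaves out the libraries that lay among the controls.

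In the ovulation window Apoe ranged from 57.7 to 188 CPM in controls with a median of 82.6, and from 50.7 to 415 CPM with PFNA with a median of 198. The PFNA libraries were scattered, with 6 above every control and replicate 2 below every control. The log2 fold change was 1.15, with an SE of 0.26 (adjusted p = 0.00042 by edgeR), a 2.22-fold rise with a 95% interval of 1.52 to 3.24.

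Pltp, which transfers phospholipid among lipoproteins, also rose in both windows. Maturation controls ranged from 3.64 to 16.7 TPM with a median of 6.01, and PFNA libraries from 6.77 to 22.5 TPM with a median of 12.3. All 10 PFNA libraries lay above the control median, but only 2 lay above every control. Its log2 fold change was 0.67, with an SE of 0.24 (adjusted p = 0.036 by limma). This call was lost when any of 10 libraries was left out, namely control replicates 1, 2, 3, 5, 6 and 11 and PFNA replicates 4, 5, 7 and 8, with values of 0.58 to 0.67. Among ovulation libraries, Pltp ranged from 1.05 to 27.6 CPM in controls and from 24.2 to 59.1 CPM with PFNA, with medians of 16.8 and 34.8. Above every control lay 8 of 11 PFNA libraries, and the log2 fold change was 1.24, with an SE of 0.27 (adjusted p = 0.00029 by edgeR). The overlapping gene Ctsa was also higher with PFNA, by 0.25 in the maturation window and 0.39 in the ovulation window on the log2 scale (adjusted p = 0.020 and 9.7e-06).

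Lpcat3, which places polyunsaturated fatty acids into membrane phosphatidylcholine, fell after hCG with PFNA. Controls ranged from 194 to 402 CPM with a median of 225, and PFNA libraries from 93.1 to 147 CPM with a median of 118. The groups did not overlap, and the PFNA libraries were the tighter group, with a coefficient of variation of 11.5% against 24.4%. The log2 fold change was -1.08, with an SE of 0.11 (adjusted p = 1.2e-09 by edgeR), or 2.11-fold lower (95% interval 1.82 to 2.46). Emg1, which overlaps it on the other strand, was lower too, from 53.9 ± 5.86 (SD, n = 12) to 31.5 ± 3.01 CPM (SD, n = 11). Among maturation libraries, Lpcat3 was at 25.1 to 35.7 TPM in controls and 20.5 to 33.3 TPM with PFNA, with medians of 30.5 and 29.0, so the groups overlapped. Its log2 fold change there was -0.13 with a 95% interval of -0.31 to 0.05 (limma adjusted p = 0.27).

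Mylip, a ubiquitin ligase that limits lipoprotein uptake, was called in neither window. For the maturation window, controls ranged from 2.76 to 6.05 TPM and PFNA libraries from 2.42 to 17.1 TPM, with medians of 4.47 and 5.66. Its log2 fold change was 0.45, with an SE of 0.20 (adjusted p = 0.10 by limma). It passed without PFNA replicates 1 and 2 (0.61, adjusted p = 0.014), without replicate 2 alone (0.56, adjusted p = 0.022) and with the oocyte marker share as a covariate (0.77, adjusted p = 0.015). Replicate 2 was the lowest PFNA library for Mylip (2.42 TPM), so leaving it out raises the value by construction. Without replicate 10, the highest library, it was 0.30 (adjusted p = 0.17), and with the granulosa marker sum in the fit its sign turned (-0.51, adjusted p = 0.056). For the ovulation window, the ranges were 7.92 to 14.4 CPM in controls and 5.59 to 14.2 CPM with PFNA, with medians of 11.4 and 9.65, and the log2 fold change was -0.18 with a 95% interval of -0.47 to 0.10 (edgeR adjusted p = 0.24). With the stroma marker sum in the fit, chosen after the data were seen, it passed at -0.37 (adjusted p = 0.027).

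**Figure D2:**
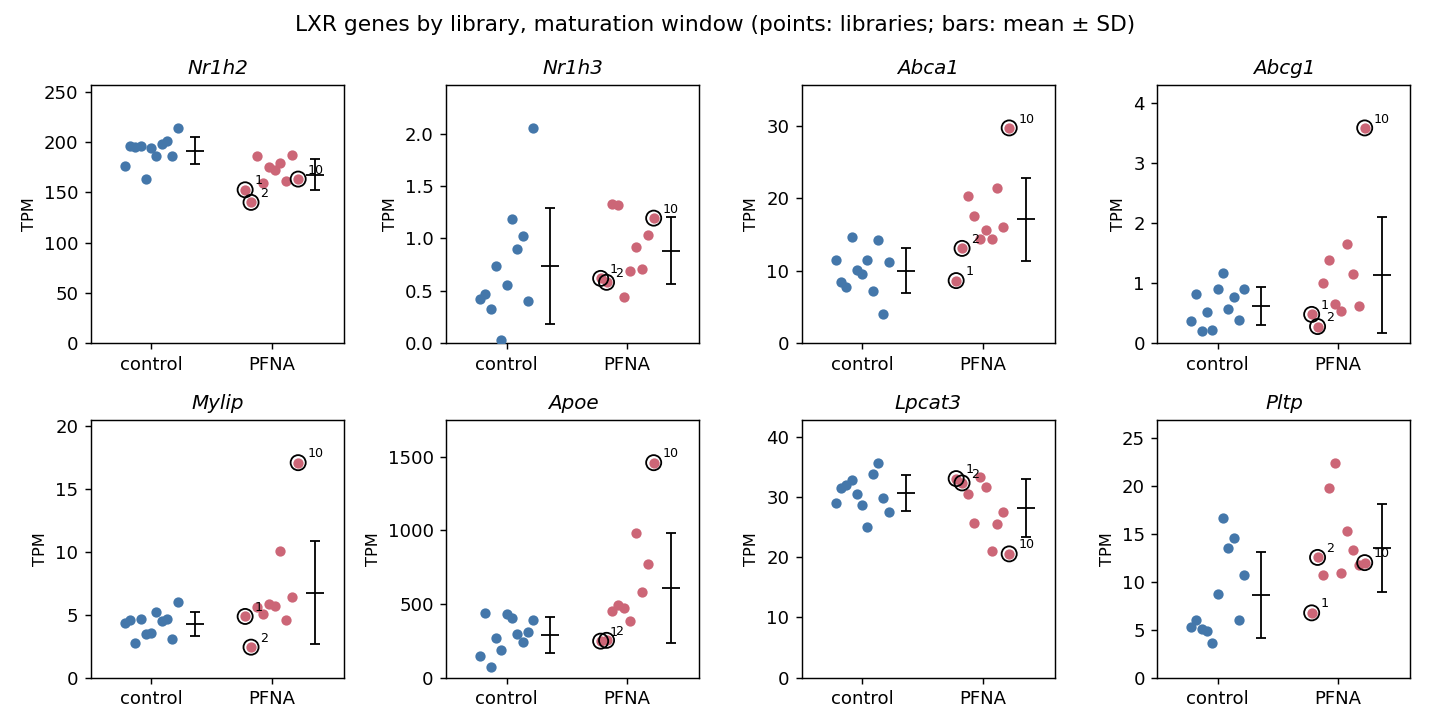
Level of each gene in TPM (y axis, from 0) in the 11 control and 10 PFNA libraries of the maturation window; points are libraries, bars the mean ± SD, and rings mark PFNA replicates 1, 2 and 10. Replicate 10 is the highest library for Abca1, Abcg1, Mylip and Apoe, and replicates 1 and 2 are the lowest PFNA libraries for Abca1 and Apoe.

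**Figure D3:**
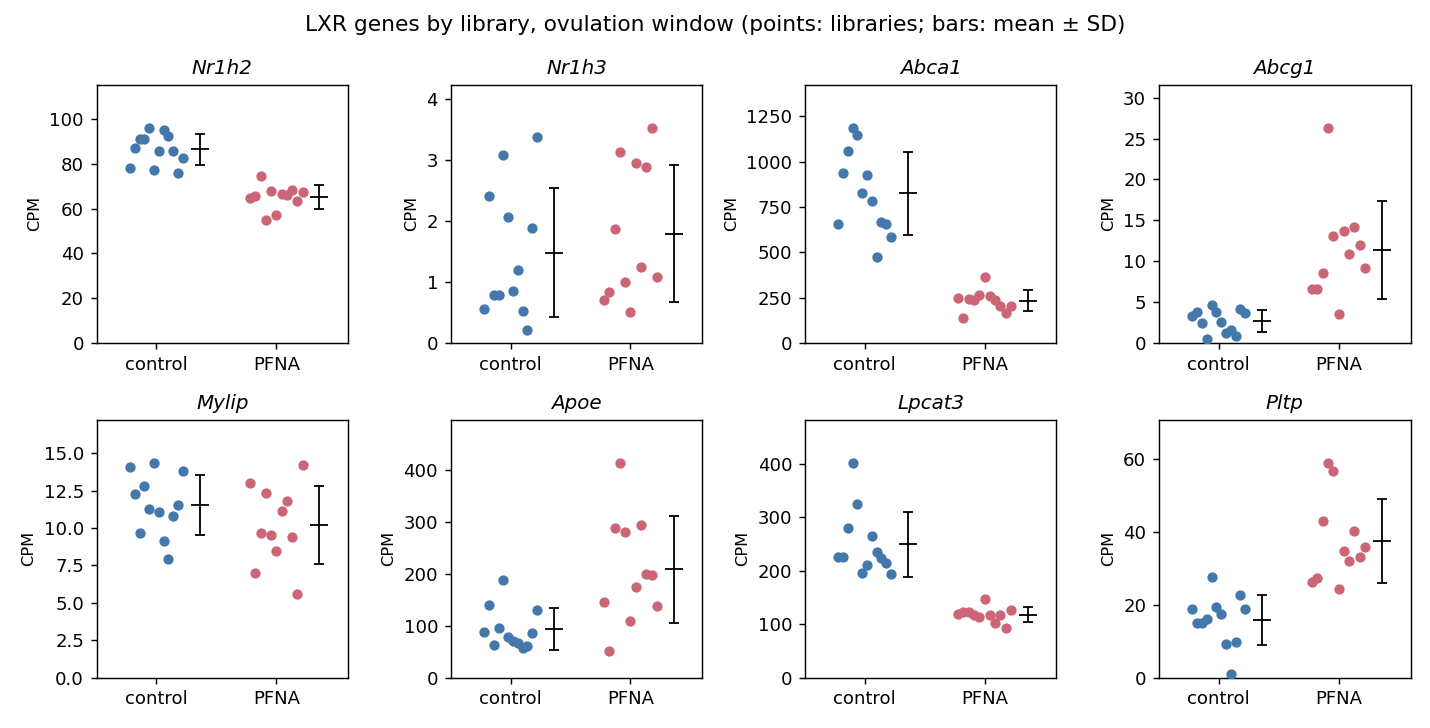
Level of each gene in CPM (y axis, from 0) in the 12 control and 11 PFNA libraries of the ovulation window; points are libraries and bars the mean ± SD. The groups do not overlap for Nr1h2, Abca1 and Lpcat3, and all 11 PFNA libraries lie above the control median for Abcg1 and Pltp. How many of all genes do the same was not counted.

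Whether the PFNA effect differed between windows was tested for 6 members with limma in each table, as the ovulation effect minus the maturation effect. Over 11213 genes, 67.7% had a different effect. The difference was -2.53 for Abca1 (95% interval -3.02 to -2.04, adjusted p = 7.2e-12) and -0.92 for Lpcat3 (-1.18 to -0.65, adjusted p = 5.9e-08). Mylip and Nr1h2 also passed, with differences of -0.63 (adjusted p = 0.019) and -0.21 (adjusted p = 0.015). The Nr1h2 difference did not pass with median-ratio size factors in both tables (-0.16, adjusted p = 0.086). Apoe and Pltp did not pass, with differences of 0.04 (95% interval -0.81 to 0.89, adjusted p = 0.94) and 0.66 (-0.11 to 1.43, adjusted p = 0.12). The windows were deposited as separate tables in different units, and any technical difference between the tables that changes a PFNA effect cannot be told apart from the window.

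Levels can be ordered within a window on a scale per transcript length. In maturation controls Apoe was highest at 291 ± 121 TPM (SD, n = 11), with a range that overlapped that of Nr1h2 at 192 ± 13.4 TPM. Lpcat3 followed at 30.6 TPM, then Abca1, Pltp and Mylip at 9.99, 8.64 and 4.26 TPM, with overlapping ranges of neighbours, and Nr1h3 and Abcg1 were lowest at 0.736 and 0.616 TPM. In ovulation controls, with CPM divided by the length of the longest transcript in kilobases, Lpcat3 led at 105 ± 25.7 (SD, n = 12), followed by Abca1 at 80.4, Apoe at 66.7 and Nr1h2 at 43.3, and neighbours in this order overlapped. With PFNA Apoe led the ovulation order at 148 ± 73.4 (SD, n = 11), Lpcat3 stood at 49.7, and Abca1 stood behind Nr1h2, at 22.7 against 32.6, with overlapping ranges. The ratio of Apoe to Abca1 within a library, in CPM and not per length, had a median of 0.109 in ovulation controls (range 0.059 to 0.226) and 0.974 with PFNA (0.303 to 1.76), with no overlap. That ratio, in TPM, had a median of 35.1 in maturation controls and 28.5 with PFNA, with overlapping ranges.

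How the members varied among libraries was examined after each group was centred on its mean, with 28 pairs of members and 48 pairs of a member and a summed marker list in each window. Permutation tests within groups (100000 resamples, two-sided) were adjusted within each family by the Benjamini-Hochberg method, for r and for rho alike, and the adjusted values are given. Values without 2 libraries leave out the 2 most distant from the median of 1 variable only. That variable was the marker sum, or the gene of the pair that comes first in the opening list of members. In the maturation window 12 pairs of members passed, 9 positive and 3 negative. Abcg1 varied with Apoe (Pearson r = 0.80, raw permutation p = 1e-05, the smallest the resamples can give, adjusted p = 0.00028, Spearman rho = 0.82, adjusted p = 0.00028, r = 0.73 without the 2 most distant libraries) and with Mylip (r = 0.82, raw and adjusted permutation p = 0.00011 and 0.0012, rho = 0.66, adjusted p = 0.0080, r = 0.58 without 2). With hCG present, 7 pairs passed, all positive. Abca1 varied with Lpcat3 (r = 0.59, raw and adjusted permutation p = 0.0041 and 0.023, r = 0.74 without 2), although its rank correlation did not pass (rho = 0.51, adjusted permutation p = 0.067), and Abcg1 with Nr1h3 (r = 0.74, raw and adjusted permutation p = 0.00012 and 0.0034, rho = 0.76, adjusted p = 0.0018, r = 0.73 without 2). Libraries share depth and cell content, so such values describe joint variation and no more.

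Markers of cell types moved with several members, and 25 of 48 pairs of a member and a marker list passed in the maturation window and 13 of 48 in the ovulation window. How often other genes pass the same tests was not counted, so these counts are no trait of the members. Apoe followed the summed macrophage and leukocyte markers in both windows, with r = 0.87 in the maturation window (raw and adjusted permutation p = 1e-05 and 0.00012, rho = 0.83, adjusted p = 0.00024, r = 0.82 without 2) and r = 0.85 in the ovulation window (raw and adjusted permutation p = 1e-05 and 0.00024, rho = 0.91, adjusted p = 0.00024, r = 0.83 without 2). During maturation it also ran with the stroma and endothelial markers (r = 0.81 and 0.72, rho = 0.79 and 0.72, adjusted permutation p = 0.00014 and 0.00048 for r, 0.00036 and 0.0011 for rho) and against the granulosa markers (r = -0.79, rho = -0.74, adjusted permutation p = 0.00012 and 0.0011). Macrophages are a well known source of apolipoprotein E. The macrophage and leukocyte sum was 9.49 to 107 TPM in maturation controls and 49.6 to 259 TPM with PFNA. Of its 7 tested markers 2 were called higher (28.6%) and none lower, beside 13.3% of all genes called higher and 29.4% either way. After hCG, the sum was 2.62 to 160 CPM in controls and 5.46 to 194 CPM with PFNA. Of 12 tested markers 6 were called higher there (50%) and none lower, beside 38.0% of all genes called higher and 73.2% either way. Among the list's defining genes in the maturation window, Cd68 and C1qa averaged 7.40 and 9.51 TPM in controls and 13.8 and 20.2 TPM with PFNA. Adgre1 and Ptprc averaged 0.138 and 0.0635 TPM in controls and 0.20 and 0.111 TPM with PFNA. None of these 4 was at 0 in every library. Fcer1g went the other way, from 0.99 to 0.583 TPM in the mean, as did Cd14 after hCG, from 6.03 to 4.12 CPM. The part of such cells in the Apoe values was not tested. The fits with a marker sum given below cannot settle it. The macrophage fit was chosen after the data were seen, and its sum was itself higher with PFNA in the maturation window (mean 110 against 64.6 TPM).

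Pltp followed the stroma and surface epithelium markers in the ovulation window (r = 0.91, raw and adjusted permutation p = 1e-05 and 0.00024, rho = 0.85, adjusted p = 0.00032, r = 0.79 without 2). Pltp also passed there with the macrophage and endothelial markers (r = 0.73 and 0.65, adjusted permutation p = 0.00038 and 0.00032). It ran against the granulosa markers (r = -0.54, adjusted permutation p = 0.016), although that rank correlation did not pass (rho = -0.49, adjusted p = 0.060). The stroma sum was 128 to 1080 CPM in controls and 685 to 1970 CPM with PFNA. Of 5 tested markers 4 were called higher (80%) and none lower, beside 38.0% of all genes called higher and 73.2% either way. Abcg1 followed the endothelial markers there (r = 0.81, raw and adjusted permutation p = 3e-05 and 0.00036, rho = 0.83, adjusted p = 0.00024, r = 0.77 without 2). It also passed with the macrophage and stroma markers (r = 0.53 for each, adjusted permutation p = 0.045 and 0.028). In the maturation window its largest r was with the stroma markers (0.86, adjusted permutation p = 0.00012). Of the 8 endothelial markers 6 were called higher (75%) and none lower, beside 38.0% of all genes called higher and 73.2% either way. Their sums were 37.7 to 163 CPM in controls and 41.1 to 465 CPM with PFNA. Abca1 followed the theca markers in both windows (r = 0.69 and 0.68, raw permutation p = 0.0010 and 0.00052, adjusted 0.0032 and 0.0039). Its rho was 0.66 and 0.63 (adjusted permutation p = 0.0058 and 0.012), and r without 2 libraries was 0.57 and 0.65. By r but not by rho, Abca1 also passed with the macrophage markers after hCG (r = 0.61, adjusted permutation p = 0.016). The same held against the granulosa markers in the maturation window (r = -0.51, adjusted permutation p = 0.034). The theca sum was 291 to 967 TPM in maturation controls and 169 to 645 TPM with PFNA. After hCG it was 211 to 674 CPM in controls (median 370) and 351 to 1440 CPM with PFNA (median 756). Its markers divided there, with 4 of 8 called higher and 2 lower (75% called, beside 73.2% of all genes). Aldh1a1, the largest term, rose from 159 to 495 CPM in the mean. Pdgfra and Nr2f2 fell, as Abca1 did, from 71.5 to 15.4 and from 41.9 to 25 CPM. No fit with the theca sum was run, so its part in the Abca1 values was not tested. Mylip ran against the granulosa markers in the maturation window (r = -0.90, raw and adjusted permutation p = 1e-05 and 0.00012, rho = -0.83, adjusted p = 0.00024, r = -0.74 without 2). It also passed there with the stroma, endothelial and macrophage markers (r = 0.75, 0.58 and 0.53, adjusted permutation p = 0.00019, 0.0015 and 0.0091).

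**Figure D4:**
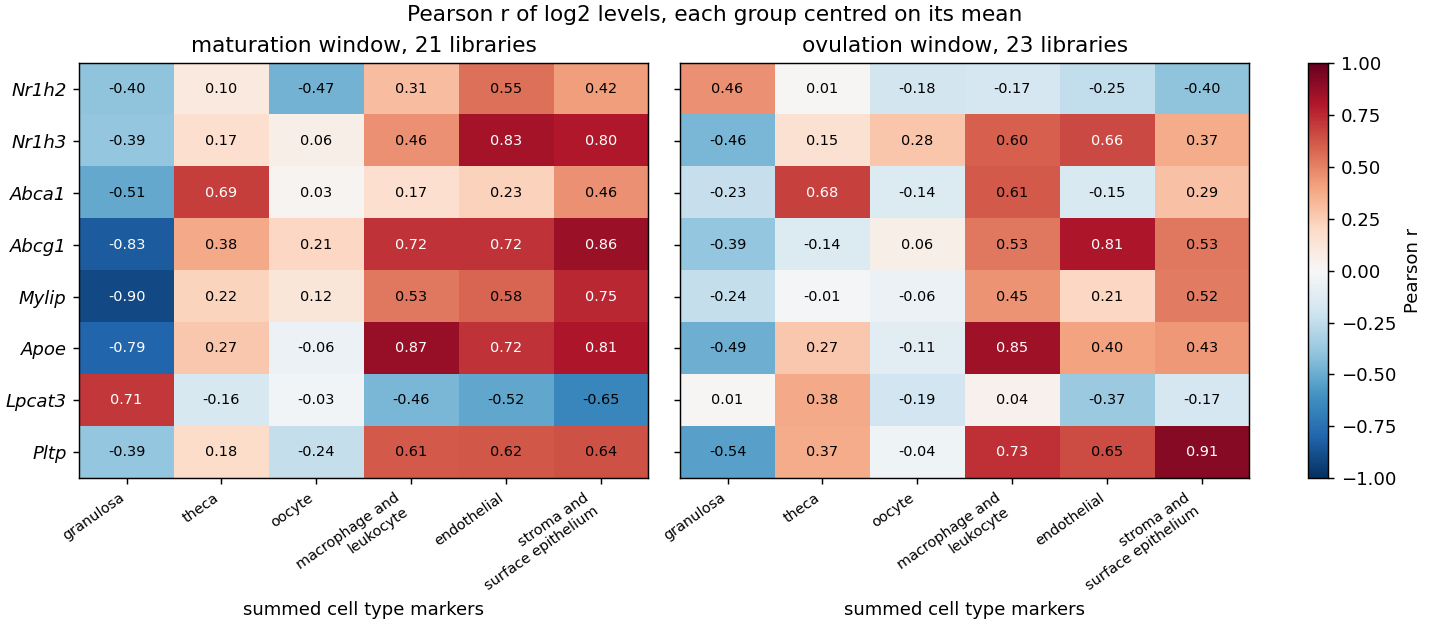
Pearson r between the log2 level of each gene (rows) and the log2 sum of each cell type's markers (columns) over 21 libraries of the maturation window and 23 of the ovulation window, after each group was centred on its mean; red is positive and blue negative. Apoe reaches 0.87 and 0.85 with the macrophage and leukocyte markers, and Pltp reaches 0.91 with the stroma markers in the ovulation window.

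The effect of PFNA was also fitted with a marker measure beside it. The oocyte share was planned, and the macrophage, stroma and granulosa sums were chosen after the data were seen. In the ovulation window the 6 called members kept their direction and their call with the macrophage, stroma or granulosa sum or the oocyte share in the fit. Abca1 was then between -2.01 and -1.67, Lpcat3 between -1.09 and -0.97, and Abcg1 between 1.5 and 2.62. The rises of Apoe and Pltp were smaller with the macrophage sum (0.62 and 0.98) and with the stroma sum (0.78 and 0.54). During maturation, Abca1 kept its call with the macrophage sum (0.65, adjusted p = 0.035) and the stroma sum (0.60, adjusted p = 0.020) but not with the granulosa sum (0.21, adjusted p = 0.73). Apoe kept its call with the stroma sum (0.63, adjusted p = 0.028) and the oocyte share (1.34, adjusted p = 0.017). It lost its call with the macrophage sum (0.41, adjusted p = 0.13) and changed sign with the granulosa sum (-0.37, adjusted p = 0.58). The uncalled values of Mylip (-0.51, adjusted p = 0.056) and Lpcat3 (0.18, adjusted p = 0.33) also changed sign with the granulosa sum. Pltp lost its call with each of the 4 measures. The granulosa sum was mostly Inha and itself differed between the maturation groups. The fit with it therefore divides a shared difference between both terms, and only 479 genes were called in it.

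**Figure D5:**
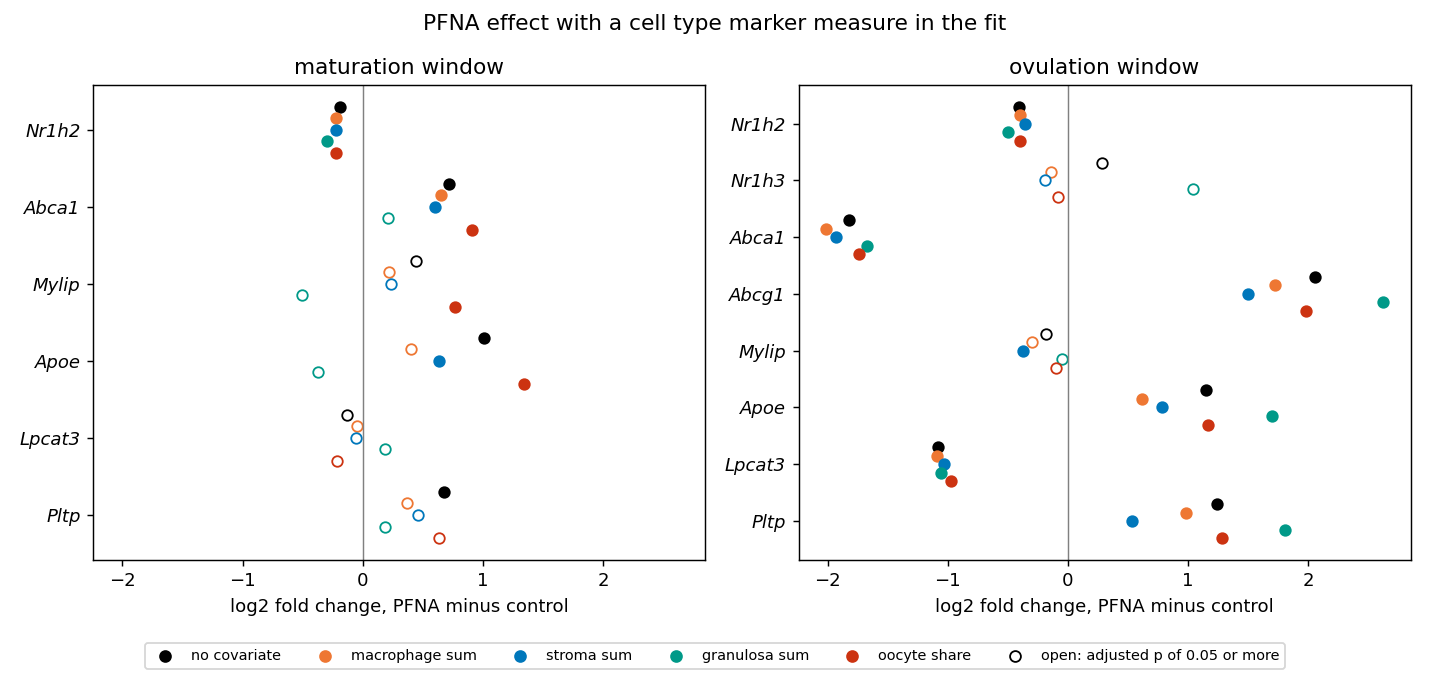
Log2 fold change with PFNA (x axis) for each tested gene in both windows, from the fit with no covariate (black) and with 1 marker measure added (colours); open points had an adjusted p of 0.05 or more. Among ovulation libraries, the 6 called genes stay filled under every measure, and in the maturation window the granulosa sum leaves only Nr1h2 filled.

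The genes around this set were described from 8 lists with 120 genes. Their counts are read against the 29.4% of all genes called in the maturation window (13.3% higher, 16.1% lower). In the ovulation window they are read against 73.2% (38.0% higher, 35.2% lower). Among the partners and cofactors of LXR, 11 of 14 tested fell and 1 rose in the ovulation window (median log2 fold change -0.38). Rxra, the retinoid receptor that pairs with LXR, fell by 0.58 on the log2 scale (edgeR adjusted p = 1.3e-07), while Rxrb was at 0.03 (adjusted p = 0.84). The corepressor Ncor1 fell by 0.30, the coactivators Med1 and Ep300 by 1.03 and 0.66, and the corepressor subunit Gps2 rose by 0.62. Among maturation libraries, 2 of 14 rose and 1 fell (median 0.14). Ncor1 and Ep300 rose by 0.37 and 0.35 (limma adjusted p = 0.032 and 0.049) and Gps2 fell by 0.18 (adjusted p = 0.047).

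Other LXR target genes did not share a direction. For the ovulation window, 7 of 15 tested rose and 4 fell (median 0.40). Mertk, a receptor for the clearance of dying cells, rose from 5.06 to 20.5 CPM in the mean (log2 fold change 2.02, edgeR adjusted p = 9.4e-12), and the phosphodiesterase Smpdl3a rose by 1.44. The lipogenic genes Fasn, Acsl3 and Scd1 fell by 1.56, 0.92 and 1.47, while Srebf1, the lipogenic regulator, was at 0.04 (adjusted p = 0.57). Lpl was at 0.07 and Abcg4 at 0.59, with adjusted p of 0.72 and 0.11. For the maturation window, 2 of 11 rose and 5 fell (median -0.22). Lpl and Smpdl3a rose by 0.58 and 0.47 (limma adjusted p = 0.0099 and 0.00077), while Srebf1, Fads1 and Scd1 fell by 0.48, 0.56 and 0.42. Abcg4 was at 0.32 (adjusted p = 0.16).

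A further list held genes of oxysterol synthesis and disposal, with enzymes of late cholesterol synthesis among them. With hCG present, 3 of 9 tested fell and 1 rose (median -0.12). Ch25h, which makes 25-hydroxycholesterol, fell from 15.9 to 1.78 CPM in the mean (log2 fold change -3.16, edgeR adjusted p = 7.1e-09). Cyp27a1, the mitochondrial sterol 27-hydroxylase, rose from 0.841 to 6.31 CPM (log2 fold change 2.89, adjusted p = 4.7e-07). With PFNA during maturation, 4 of 7 tested fell and none rose (median -0.31), among them Dhcr7 and Ebp, which fell by 0.67 and 0.41. Ch25h and Cyp27a1 were at 0.36 and -0.08 there, with adjusted p of 0.63 and 0.78.

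Acceptors and lipoprotein receptors divided in the ovulation window, where 8 of 14 tested rose and 3 fell (median 0.52). The acceptor Apoa1 and the cholesterol-esterifying enzyme Lcat rose by 1.15 and 1.04, and the transporter Abca7 and the caveolar protein Cav1 rose by 1.32 and 1.67. The HDL receptor Scarb1 fell from 1507 ± 382 (SD, n = 12) to 476 ± 115 CPM (SD, n = 11), which is -1.66 on the log2 scale (adjusted p = 8.4e-11 by edgeR). The lipoprotein receptor Vldlr fell by 0.51, while Lrp8 was at 0.35 (adjusted p = 0.065). In the maturation window 3 of 14 fell and none rose (median 0.06). Lrp8 fell from 7.18 to 1.76 TPM in the mean (log2 fold change -1.67, limma adjusted p = 8.5e-06). Scarb1, Vldlr, Apoa1 and Lcat were not called there, at -0.18, 0.04, -0.42 and 0.10.

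Sterol transport and storage genes rose more often than they fell after hCG with PFNA, 11 against 7 of 21 tested (median 0.34), in a window where 38.0% of all genes rose. Soat1, which esterifies cholesterol for storage, rose from 297 ± 90.8 (SD, n = 12) to 636 ± 79.2 CPM (SD, n = 11), which is 1.10 on the log2 scale (adjusted p = 3.3e-08 by edgeR). The lysosomal transporter Npc1 rose by 0.34, and the oxysterol-binding protein genes Osbpl8 and Osbpl1a rose by 1.77 and 1.89. Lipe, the hormone-sensitive lipase that releases stored cholesterol, fell by 2.31, and the sterol transfer gene Gramd1b by 1.15. During maturation, 3 of 19 rose and 3 fell (median 0.0045). Osbpl8 and the lysosomal lipase Lipa rose by 0.70 and 0.27, Scp2 and Osbpl1a fell by 0.19 and 0.22, and Soat1 and Npc1 were at -0.04 and 0.12 (adjusted p = 0.80 and 0.38).

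The SREBP2 arm, which raises cholesterol synthesis when cells are short of sterol, fell after hCG with PFNA in 11 of 13 tested genes, and 1 rose (median -0.91). Sqle and Hmgcs1 fell by 3.05 and 2.57, Insig1 by 1.77 and Srebf2 by 0.54, and the protease gene Mbtps1 rose by 0.40. Among maturation libraries, 6 of 13 fell and none rose (median -0.29), with Mvd, Fdps and Srebf2 down by 1.04, 0.78 and 0.25 and Insig1 at -0.29 (limma adjusted p = 0.057).

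Of the phospholipid remodelling enzymes around Lpcat3, 7 of 12 tested fell and 4 rose in the ovulation window (median -0.26). Pla2g4a, the phospholipase that frees arachidonic acid, fell from 374 to 98.0 CPM in the mean, a log2 fold change of -1.93 (edgeR adjusted p = 1.3e-15), and Pcyt1a, of phosphatidylcholine synthesis, fell by 2.17. The acyltransferase Mboat2 and the phospholipase Pla2g6 rose by 1.66 and 1.43. For the maturation window, 3 of 10 rose and 3 fell (median 0.13), with Lpcat4 and Agpat3 up by 0.35 and 0.19 and Pla2g4a and Lpcat1 down by 0.87 and 0.39. Of the ubiquitin ligase list around Mylip, 5 of 9 tested fell and 1 rose in the ovulation window (median -0.23). Rnf139 and Ube2d2a fell by 0.62 and 0.26 and Ubxn4 rose by 0.69. With PFNA during maturation, 2 of 9 fell, Syvn1 by 0.20 and Rnf145 by 0.27 (median -0.03).

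The genes most like each member over the libraries of a window, by Pearson r after centring each group, were taken for members with a mean of at least 10. After hCG, 8871 genes were compared. Abca1 was closest to Tead1 (r = 0.89), Pros1 (0.88) and Sptbn1 (0.87), and Lpcat3 to Zfand3, Eaf1 and Ncoa7 (0.88, 0.87 and 0.86). Apoe was closest to Mpeg1 (0.86), Nrp2 (0.85) and Lyz2 (0.82), where Mpeg1 and Lyz2 are macrophage-enriched genes. Lyz2 is itself in the macrophage and leukocyte list, so it is not separate from the correlation with that sum. Pltp was closest to Col3a1, Igfbp7 and Gpc3 (0.95, 0.92 and 0.92), where Col3a1 is a fibrillar collagen of stroma. Mylip was closest to Nr1d1, Dlc1 and Sgms2 (0.84, 0.83 and 0.77), and Nr1h2 to Egln2, Mark4 and Bcl2l2 (0.85, 0.81 and 0.79). In the maturation window 6496 genes were compared, and Lpcat3 was closest to Dhcr7 (0.90), Pgam1 (0.90) and Nsdhl (0.88), where Dhcr7 and Nsdhl are enzymes of cholesterol synthesis. Apoe was closest to Tpm1, Dcn and Tspan4 (0.92, 0.91 and 0.89), where Dcn is in the stroma list. Abca1 was closest to Pja2, Ptgfrn and Calu (0.89, 0.88 and 0.87). Pltp was closest to Atf5, Tgm2 and Thbd (0.86, 0.84 and 0.83), and Nr1h2 to Vamp8, Stbd1 and Zfp622 (0.80, 0.79 and 0.79).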

How the data were processed

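Polyadenylated RNA of 44 follicle libraries was sequenced. The submitters' processing notes name Partek, Bowtie2 and HISAT2, and their roles, versions and the annotation are not given in the sources used here. The deposited maturation table holds TPM, although it was described as raw counts, since every library sums to the same total and 82.3% of values are not whole. The deposited ovulation table holds estimated counts, which were rounded to whole numbers. Each column was matched to a library by its name, except 1 maturation control column with a name that fits no title exactly, assigned to control replicate 6, the only control title without a column.

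For TPM, limma 3.58.1 (trend, robust) was run on log2(TPM + 1) for genes averaging 1 TPM or more, so fold changes of low genes are understated. For counts, edgeR 4.0.16 was run with TMM, its expression filter and the robust quasi-likelihood test, and CPM are TMM-normalised. DESeq2 1.42.0 was an alternative, and all ran under R 4.3.3. P-values were adjusted by the Benjamini-Hochberg method over all genes tested, two-sided. Effects were compared between windows with limma within each table. The fits were tested on simulated data in which few genes changed and the libraries of a group were alike. A log2 change of 1 was recovered for 100% of changed genes in the ovulation setting and 86% in the maturation setting. Of unchanged genes 0.0454% and 0.074% were called. The real data, with many genes called and a divided maturation PFNA group, differ from this setting, so the error rate there was not tested. No libraries held identical values, and ovulation libraries of a group differed by more than sampling noise, which could not be tested for TPM.

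The members and gene lists were chosen with earlier results of these data known. All members were named, with fixed receptor, oxysterol and sterol genes and, per list and window, the 2 called genes of smallest p in each direction. Some genes of the lists are counted but not reported here by name.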

Additional observations from a re-analysis of the deposited data

Results flagged for a closer look

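In the maturation PFNA group of 10 libraries, 61 genes were checked with Dixon's criterion, which compares the distance of the highest or lowest library from the next with the whole range. It picked out 6, where chance gives about 3.05. Larger groups were not searched. PFNA replicate 10 was set apart for Abcg1 at 3.59 TPM (next 1.65), for Mylip at 17.1 TPM (next 10) and for the coactivator Med1 at 26.2 TPM (next 19.1). Other libraries were set apart for the remaining genes. Abcg4 was at 8.33 TPM in replicate 3 (next 5.41), Ch25h at 29.9 TPM in replicate 4 (next 13.3) and Pla2g4a at 4.12 TPM in replicate 1 (next 2.22).

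The PFNA effect differed between the windows, as the ovulation effect minus the maturation effect on the log2 scale, by -2.53 for Abca1, -0.918 for Lpcat3, -0.632 for Mylip and -0.212 for Nr1h2. Abca1 changed direction, with 6 of 10 libraries above every control in the maturation window and 11 of 11 below every control in the ovulation window.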

How the results depend on the processing

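The ovulation calls of the 6 called members kept their direction and threshold side under DESeq2, RLE scaling, no filter, limma, the 4 marker covariates, the replicate block and each left-out library. Abca1 ranged from -2.01 to -1.67 over all of these. In the maturation window the number of members called lower was 0, where it had been 1, without mitochondrial-like genes and with the replicate block, where Nr1h2 was -0.171 and Pltp 0.62 (adjusted p = 0.065 and 0.095). Members called higher were 1 with the macrophage sum and 0 with the granulosa sum as a covariate, in place of 3, and genes called were 2676 and 479, in place of 4030. Apoe was -0.369 with the granulosa sum. With 1 library left out, members called higher ranged from 2 to 4 and genes called from 3586 to 4588. Pltp also lost its call without a filter on low values (0.67, adjusted p = 0.053). The replicate block changed no other call in either window, nor any difference between windows, where Abca1 was -2.46. Deviations from the group means of same-numbered libraries had correlations of -0.138 to 0.168 over 9 numbers in the maturation window and -0.193 to 0.073 over 11 in the ovulation window, so the block is a check of numbering only. Scaling moved the median of all genes by under 0.1 on the log2 scale. Depth is unknown in the maturation window, so no limit was set on Nr1h3 and Abcg1, which were mostly near 1 TPM or below. Covariate fits with the macrophage, stroma and granulosa sums were chosen after seeing the data, and the cause of each change was not tested.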
